A study of Mus musculus with 3 samples.

Results

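The 7 miRNAs described here are the miR-200 family (mmu-miR-200a-3p, mmu-miR-200b-3p, mmu-miR-200c-3p, mmu-miR-141-3p and mmu-miR-429-3p), mmu-miR-203-3p and mmu-miR-205-5p, written without the mouse prefix from here on, which are best known from epithelial cells. They were taken by name from the 1881 mouse miRNAs on an Agilent miRNA microarray, and each was measured by 2 probes, 14 probes in all, with 15 replicate spots per probe on each array. The samples were sera of 8-week-old C57BL/6NJcl male mice. All samples share strain, sex and age, and the groups differ by label in how RNA was extracted from 200 µL of serum. For the exoRNeasy extract, 700 µL of the phenol reagent QIAzol was added to serum, and the aqueous phase was purified on an exoRNeasy midi column, which the labels take to represent total RNA. The miRNeasy advanced extract was made with the miRNeasy serum/plasma advanced kit, and the mirVana PARIS extract with the kit of that name. From each extract 1.8 ng of RNA was labelled with the dye Cy3 and hybridised to 1 array. The labels do not say whether the extracts came from the same animals or from pooled serum. With 1 array per kit no test of significance was made, and every error given is the spread between replicate spots, which covers the array and neither the extraction nor the mice.

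A miRNA recognises its target transcripts mainly through its seed, the bases 2 to 8 from its 5′ end. The miR-200 family represses the transcription factors Zeb1 and Zeb2 and so helps to keep epithelial cells from taking on a mesenchymal state. miR-203 restrains the stem cell factor p63 in skin and promotes the differentiation of keratinocytes, and miR-205 is abundant in stratified and glandular epithelium. Which cells released these miRNAs into serum was not measured.

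The mature sequences are shown because the family is divided both by seed and by gene cluster, and the 2 divisions cross. They are those of RefSeq on GRCm38.p6, 5′ to 3′, with the seed in capitals. All 7 names were matched.
miR-200b-3p: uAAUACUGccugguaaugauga
miR-429-3p: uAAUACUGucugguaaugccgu
miR-200c-3p: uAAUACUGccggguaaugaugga
miR-200a-3p: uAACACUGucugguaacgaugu
miR-141-3p: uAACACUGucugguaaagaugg
miR-203-3p: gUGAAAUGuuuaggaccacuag
miR-205-5p: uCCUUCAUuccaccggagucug
By seed, miR-200b-3p, miR-429-3p and miR-200c-3p form one group with AAUACUG, and miR-200a-3p and miR-141-3p another with AACACUG. By gene, the hairpins of Mir200b, Mir200a and Mir429 lie within 1846 bases of the minus strand of chromosome 4 (chr4:156053905-156055750). Those of Mir200c and Mir141 lie within 477 bases of the minus strand of chromosome 6 (chr6:124717914-124718390). Mir203 (chr12:112130880-112130955, plus strand) and Mir205 (chr1:193507463-193507530, minus strand) lie elsewhere. Except for miR-429-3p, the closest relative of each family member came from the other cluster. miR-429-3p was closest to miR-200a-3p and miR-200b-3p of its own cluster, identical to each at 18 of 22 aligned bases. Counted from 1 at the 5′ end, miR-200b-3p and miR-200c-3p were identical at 20 of 22 aligned bases (U11G and A22G, with miR-200b-3p first), and miR-200a-3p and miR-141-3p also at 20 of 22 (C17A and U22G, with miR-200a-3p first). Neither miR-203-3p nor miR-205-5p was identical to any other of the 7 at more than 9 of 22 bases.

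Signals were the scanner software's background-subtracted spot intensities, on a linear scale. A probe was counted as detected on an array when over 0.5 of its spots, without those flagged as outliers, were flagged well above background, and a miRNA when at least 1 of its probes was. Most of the array was dark: 83, 71 and 134 of 1881 miRNAs were detected on the exoRNeasy, miRNeasy advanced and mirVana PARIS arrays. The lowest mean signal of a detected probe was 22.0 in the exoRNeasy extract, 12.4 in the miRNeasy advanced extract and 9.56 in the mirVana PARIS extract, while negative-control spots averaged 5.26 ± 3.53, 4.88 ± 2.65 and 4.90 ± 2.53 (SD, 984, 990 and 988 spots) in the same order. A signal between 9.56 and 22.0 could thus be detected in the mirVana PARIS extract and not in the exoRNeasy extract. The red blood cell miRNAs miR-451a, miR-144-3p, miR-16-5p and miR-486a-5p, the platelet and white blood cell miRNAs miR-223-3p, miR-142a-3p and miR-126a-3p, the liver miRNA miR-122-5p and the muscle miRNAs miR-1a-3p and miR-133a-3p were detected on all 3 arrays. Their scaled log2 differences for exoRNeasy minus mirVana PARIS, after scaling, ran from −1.60 for miR-144-3p to 0.87 for miR-126a-3p, and their part in the values that follow was not tested.

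The epithelial miRNAs were split between extracts. On the exoRNeasy array 3 of the 7 were detected, miR-200b-3p, miR-200a-3p and miR-429-3p, against 4.41% of all miRNAs on that array. On the miRNeasy advanced array 0 of 7 were detected, against 3.77% of all. On the mirVana PARIS array 4 of 7 were detected, miR-200b-3p, miR-200a-3p, miR-203-3p and miR-205-5p, against 7.12% of all. By pattern, miR-429-3p was detected in the exoRNeasy extract alone, as were 0.159% of all miRNAs, while miR-200b-3p and miR-200a-3p shared exoRNeasy and mirVana PARIS, as did 0.691%. miR-203-3p and miR-205-5p were detected in the mirVana PARIS extract alone, as were 2.66% of all, and miR-200c-3p and miR-141-3p in none, as were 92.7%. None of the 7 was detected on all 3 arrays, where 3.56% of all miRNAs were. Every one of the 7 detections rested on 1 of the miRNA's 2 probes, so that with both probes required the counts were 0 on each array. The scanner software's own call per miRNA also gave 3 in the exoRNeasy extract, but 2 in the miRNeasy advanced extract (miR-200a-3p and miR-200b-3p) and 6 in the mirVana PARIS extract, where miR-141-3p and miR-429-3p were added. The software's call was made for 7.12%, 5.16% and 8.56% of all miRNAs in the same order.

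**Figure D1:**
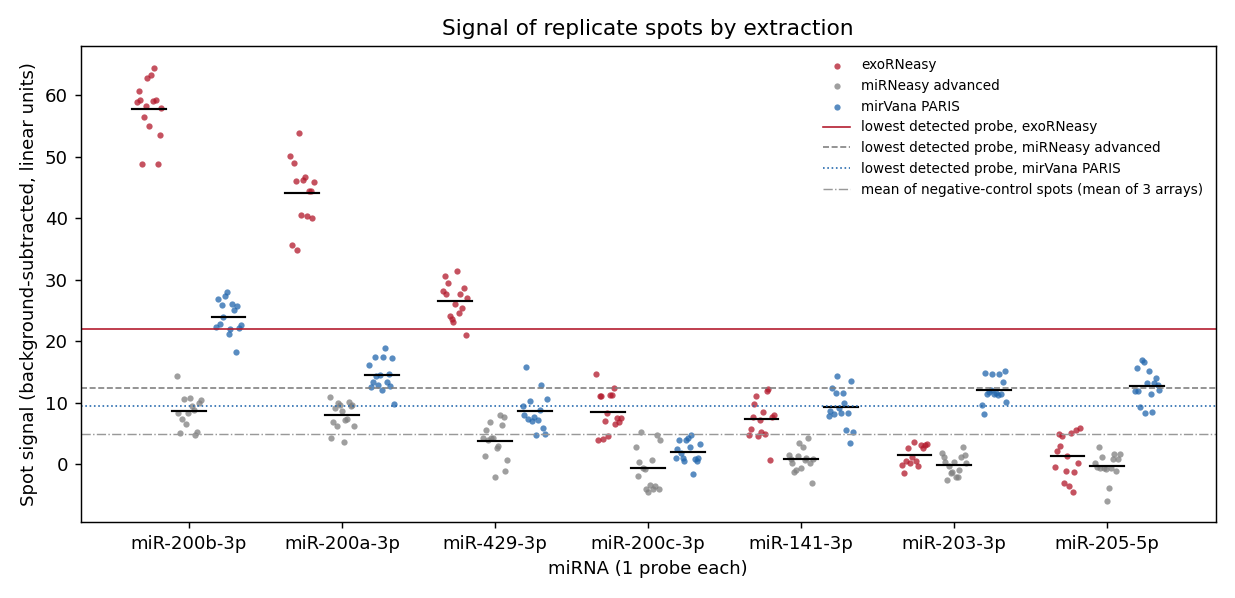
Background-subtracted signal (linear units) of every replicate spot used, for 1 probe of each of the 7 miRNAs, on the exoRNeasy, miRNeasy advanced and mirVana PARIS arrays; each point is 1 spot and black bars are means. miR-200b-3p, miR-200a-3p and miR-429-3p were brightest in the exoRNeasy extract, at means of 57.8, 44.2 and 26.6, while miR-203-3p and miR-205-5p stood above the other 2 arrays in the mirVana PARIS extract, at 12.2 and 12.8. Horizontal lines mark the lowest mean signal of a detected probe on each array and the negative-control mean.

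Within the chromosome 4 cluster all 3 miRNAs were brightest in the exoRNeasy extract. miR-200b-3p had a mean signal of 57.8 ± 4.68 in the exoRNeasy extract (SD, 15 spots), against 8.61 ± 2.67 in the miRNeasy advanced extract (14 spots) and 24.0 ± 2.70 in the mirVana PARIS extract (15 spots). Its spots ran from 48.8 to 64.5 in the exoRNeasy extract, from 4.82 to 14.4 in the miRNeasy advanced extract and from 18.3 to 28.1 in the mirVana PARIS extract, so that no 2 arrays overlapped. All 15 spots were well above background in the exoRNeasy extract, 1 of 14 in the miRNeasy advanced extract and all 15 in the mirVana PARIS extract.

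miR-200a-3p, from the same chromosome 4 cluster but with the other seed, had the same order of unscaled signals. Its mean signal was 44.2 ± 5.36 in the exoRNeasy extract (SD, 14 spots), 7.98 ± 2.22 in the miRNeasy advanced extract (15 spots) and 14.5 ± 2.49 in the mirVana PARIS extract (15 spots). The exoRNeasy spots, from 34.8 to 53.8, lay above all others, whereas the miRNeasy advanced spots, up to 11, overlapped the mirVana PARIS spots, from 9.79. The count of spots well above background was 14 of 14, 0 of 15 and 14 of 15 in that order of arrays. The order of the 2 dimmer arrays holds for unscaled signals and turns with the scaling, as given with the comparison of miRNeasy advanced and mirVana PARIS.

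miR-429-3p, which carries the AAUACUG seed of miR-200b-3p, gave 26.6 ± 2.91 in the exoRNeasy extract (SD, 15 spots), 3.74 ± 3.03 in the miRNeasy advanced extract (15 spots) and 8.64 ± 3.04 in the mirVana PARIS extract (14 spots). Its exoRNeasy spots, from 21.1 to 31.5, did not overlap those of either other array, which reached 7.98 and 15.8. It was well above background in 14 of 15 exoRNeasy spots, 0 of 15 miRNeasy advanced spots and 4 of 14 mirVana PARIS spots. On the mirVana PARIS array it was therefore not detected, although its second probe had 6 of 15 spots well above background there.

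Neither miRNA of the chromosome 6 cluster was detected in any extract. miR-200c-3p had 0 spots well above background on all 3 arrays. Binding of family members to each other's probes was not tested, as probe sequences were not used here, so each signal is that of a probe and may include near-identical members. The brighter of its probes gave 8.58 ± 3.24 in the exoRNeasy extract, −0.56 ± 3.44 in the miRNeasy advanced extract and 2.07 ± 1.76 in the mirVana PARIS extract (SD, 15 spots each), and the other lay between −1.91 and −1.21 on the 3 arrays. The brighter probe's signal was 6.51 ± 0.95 higher in the exoRNeasy than in the mirVana PARIS extract (SE), which lies inside the range of −6.10 to 10.9 that held the central 95% of 4197 probes detected on no array.

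miR-141-3p, its cluster partner with the seed of miR-200a-3p, did not follow that order. The brighter of its probes gave 7.38 ± 3.15 in the exoRNeasy extract, 0.81 ± 1.86 in the miRNeasy advanced extract and 9.25 ± 3.10 in the mirVana PARIS extract (SD, 15 spots each). On the mirVana PARIS array 5 of 15 spots were well above background, and on the other 2 arrays 0 of 15. The signal in the miRNeasy advanced extract minus that in the mirVana PARIS extract was −8.44 ± 0.93 (SE), outside the range of −4.08 to 2.37 that held the central 95% of the probes detected on no array. Its own probe is among those 4197 probes, of which 5% lie outside and 2.5% below by construction. The trait was not particular to miR-141-3p, as 11 of the 14 member probes lay below this range. Those 11 include probes detected in the mirVana PARIS extract, and such detection favours a place below a range of undetected probes. Without scaling, 69 of 71 miRNAs detected on both arrays were also dimmer in the miRNeasy advanced extract. The share of all probes below the range was not counted, so the 11 are a description. For miR-141-3p the difference between the exoRNeasy and mirVana PARIS arrays, −1.87 ± 1.14 (SE), was within 2 standard errors. By gene cluster, the chromosome 4 miRNAs were detected more often than those of chromosome 6, 3 of 3 against 0 of 2 in the exoRNeasy extract and 2 of 3 against 0 of 2 in the mirVana PARIS extract. Each seed had detected and undetected members, with 2 of 3 for AAUACUG and 1 of 2 for AACACUG in the exoRNeasy extract, and 1 of 3 and 1 of 2 in the mirVana PARIS extract. Of all miRNAs, 4.41% and 7.12% were detected in these 2 extracts. With a cutoff of over 0.25 of spots, miR-141-3p and miR-429-3p were also detected in the mirVana PARIS extract, beside 7.66% of all miRNAs. The cluster and seed counts there thus depend on the cutoff. These counts of at most 3 miRNAs are a description. Brightness was not compared between miRNAs, since probes differ in how strongly they bind, and detection, a cutoff on the spots of each probe, has the same limit.

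miR-203-3p and miR-205-5p were brightest in the mirVana PARIS extract instead. miR-203-3p gave 1.5 ± 1.69 in the exoRNeasy extract (SD, 13 spots), −0.042 ± 1.60 in the miRNeasy advanced extract (15 spots) and 12.2 ± 2.04 in the mirVana PARIS extract (15 spots). Its mirVana PARIS spots, from 8.27 to 15.2, lay above every spot of the exoRNeasy array, which reached 3.66, and of the miRNeasy advanced array, which reached 2.82. Of these spots 12 of 15 were well above background in the mirVana PARIS extract, and 0 on the other 2 arrays.

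miR-205-5p gave 1.31 ± 3.52 in the exoRNeasy extract, −0.26 ± 2.19 in the miRNeasy advanced extract and 12.8 ± 2.68 in the mirVana PARIS extract (SD, 15 spots each). The mirVana PARIS spots, from 8.42 to 17.0, again lay apart from those of the exoRNeasy array, up to 6.00, and of the miRNeasy advanced array, up to 2.81. The count of spots well above background was 0 of 15, 0 of 15 and 12 of 15. For both miRNAs the mean signals on the exoRNeasy and miRNeasy advanced arrays were below the negative-control means of those arrays. Such a placement was shared by other miRNAs, and the median over all spots of these arrays, −2.77 and −1.51, also lay below those means. Among the 50 miRNAs detected in the mirVana PARIS extract alone, of which these are 2, the exoRNeasy signal was below the negative-control mean for 15 and the miRNeasy advanced signal for 18. Without scaling, 44 of the 50 were dimmer in the exoRNeasy than in the mirVana PARIS extract. Selecting miRNAs by detection in the mirVana PARIS extract alone favours such counts, so they are a description. Because the lowest detected probe in the exoRNeasy extract was brighter than either miRNA in the mirVana PARIS extract, no lower bound above 1-fold could be given for mirVana PARIS over exoRNeasy, with or without scaling; a bound of 2-fold was reached by 0% of the 54 miRNAs detected in the mirVana PARIS and not the exoRNeasy extract. Against the miRNeasy advanced array neither had a bound above 1-fold with scaling, and without scaling only miR-205-5p had one, at least 1.03-fold, where 28.6% of 63 such miRNAs had a bound of at least 2-fold.

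**Figure D2:**
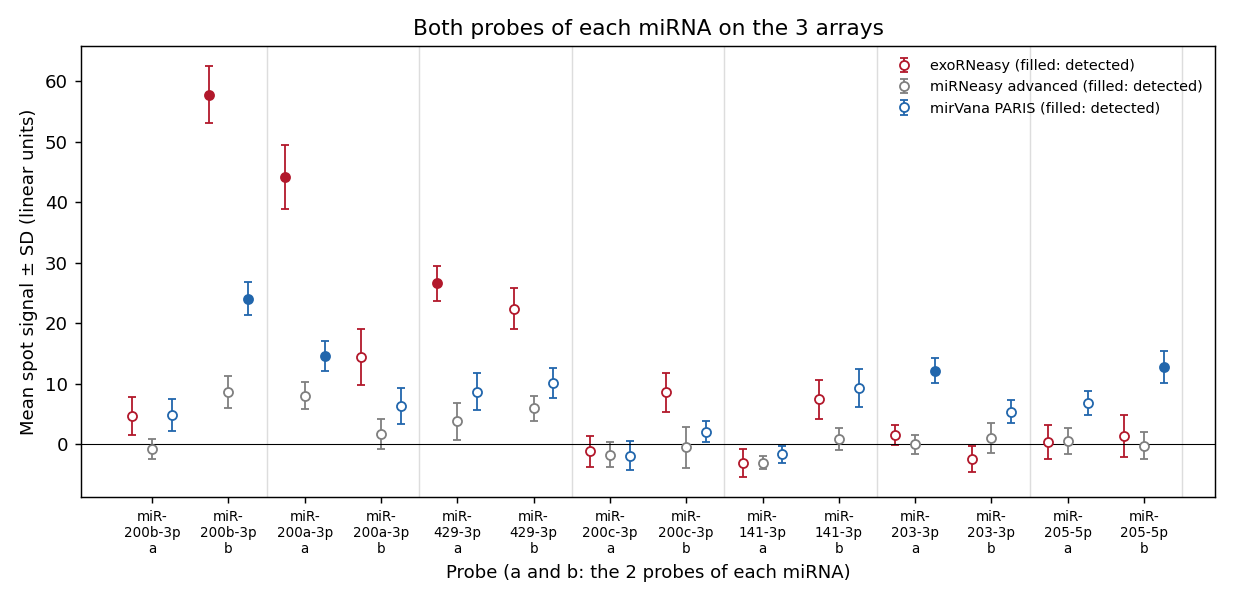
Mean signal ± SD between spots (linear units) of both probes (a and b) of each miRNA on the exoRNeasy, miRNeasy advanced and mirVana PARIS arrays; filled points are detected probes. For each miRNA with a detected probe the other probe was undetected, and the second probe of miR-200b-3p was below the negative-control mean on all 3 arrays.

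The mean signals of the second probes had the same order for exoRNeasy and mirVana PARIS in 4 of the 5 detected miRNAs, with spots that did not overlap in 2 of them, miR-429-3p and miR-203-3p. For miR-200a-3p the second probe gave 14.4 ± 4.61 in the exoRNeasy extract, 1.61 ± 2.49 in the miRNeasy advanced extract and 6.31 ± 2.98 in the mirVana PARIS extract (SD). Its spots overlapped between exoRNeasy and mirVana PARIS, and the difference of 8.04 ± 1.42 (SE) lay inside the range of −6.10 to 10.9 of probes detected on no array. For miR-429-3p it gave 22.4 ± 3.45 in the exoRNeasy extract, 5.90 ± 2.06 in the miRNeasy advanced extract and 10.2 ± 2.46 in the mirVana PARIS extract. Both follow the order of their detected probes. For miR-203-3p it gave −2.54 ± 2.16 in the exoRNeasy extract and 5.38 ± 1.94 in the mirVana PARIS extract, with spots that did not overlap. For miR-205-5p it gave 0.38 ± 2.81 in the exoRNeasy extract and 6.77 ± 2.04 in the mirVana PARIS extract, with spots that overlapped. The exception was miR-200b-3p, whose second probe gave 4.66 ± 3.09 in the exoRNeasy extract and 4.80 ± 2.63 in the mirVana PARIS extract, a difference of −0.14 ± 1.05 (SE), at the level of the negative controls. The values of miR-200b-3p given here thus rest on 1 probe.

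The size of the exoRNeasy excess could be stated for miR-200a-3p and miR-200b-3p, the members detected on both arrays. Signals were converted to log2 after each array had been scaled to the 75th percentile of the 106 probes detected on all 3 arrays. The scaled log2 level of miR-200a-3p was −1.59 in the exoRNeasy extract and −4.17 in the mirVana PARIS extract, a difference of 2.58 ± 0.08 (SE between spots) or 6.00-fold. miR-200b-3p had scaled log2 levels of −1.20 and −3.44 on these arrays, a difference of 2.24 ± 0.05 or 4.72-fold. They held places 4 and 5 from the top among the 80 miRNAs detected on both arrays, whose median difference was 0.33, and of which 25% were at least 2-fold higher and 2.5% at least 2-fold lower in the exoRNeasy extract. Scaling set part of the size. Without it the 2 differences were 1.61 and 1.27, and the median of all 80 was −0.64, with 6.25% at least 2-fold higher and 27.5% at least 2-fold lower. Both miRNAs were brighter in the exoRNeasy extract in the raw signal as well, where 59 of the 80 were dimmer, but for miR-200a-3p, at 14.5 in the mirVana PARIS extract, the lowest detected exoRNeasy signal of 22.0 left no other direction.

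These differences were measured near the lower end of the range. The lowest detected level in the exoRNeasy extract was −2.62 on the scaled log2 scale, so a miRNA at the mirVana PARIS level of miR-200a-3p could have been compared only if its difference was at least 1.56, and at that of miR-200b-3p only if at least 0.82. Being detected in both extracts thus fixed the scaled direction of both, and also their place above the median difference of 0.33. The measured differences exceeded these limits by about 1 log2 unit or more. Of the 80 miRNAs, 18 had a mirVana PARIS level under the lowest detected exoRNeasy level; all of them had to be higher in the exoRNeasy extract, and 15 were at least 2-fold higher, with a median difference of 1.4. Background handling moved both values. With normexp, a model-based background correction, the differences were 1.25 for miR-200a-3p and 1.24 for miR-200b-3p, against a median of 0.43 over all 80.

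**Figure D3:**
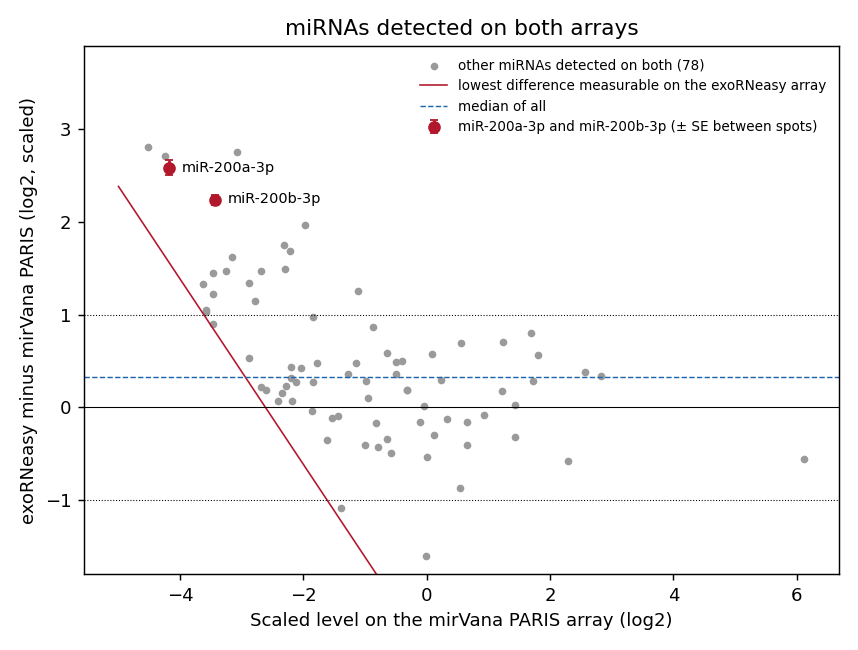
Scaled log2 difference, exoRNeasy minus mirVana PARIS, against the scaled log2 level in the mirVana PARIS extract, for the 80 miRNAs detected on both; dotted lines mark 2-fold. miR-200a-3p at 2.58 and miR-200b-3p at 2.24 (± SE between spots) lie at the dim left end, above the solid red line below which the exoRNeasy array could not have detected a miRNA; both axes share the mirVana PARIS level.

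By the rule of nearest difference among the 12 other miRNAs detected on the exoRNeasy and mirVana PARIS arrays and not in the miRNeasy advanced extract, miR-200a-3p was most like miR-5119, whose difference of 2.71 ± 0.10 lay 0.13 away. Next came miR-574-5p at 2.81 ± 0.13, and then miR-200b-3p, 0.34 away. miR-200b-3p was most like miR-200a-3p, followed by miR-5119 and miR-574-5p. The likeness covers 1 difference between 2 arrays. Of the 13 miRNAs with this pattern, which include these 2 members, 10 were at least 2-fold higher in the exoRNeasy extract and the median difference was 1.45. Among all 80 miRNAs detected on both arrays 25% were. The lowest detected signal was 22.0 with exoRNeasy and 9.56 with mirVana PARIS, so detection of dim miRNAs on both arrays favours such differences.

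Against the miRNeasy advanced array, where none of the 7 was detected, the exoRNeasy excess had only lower bounds. With scaling, miR-200b-3p was at least 2.65-fold, miR-200a-3p at least 2.02-fold and miR-429-3p at least 1.22-fold higher in the exoRNeasy extract, among 16 miRNAs detected with exoRNeasy but not with miRNeasy advanced, of which 25% had a bound of at least 2-fold. Without scaling the bounds were at least 4.74-fold, 3.60-fold and 2.17-fold, and 75% of the 16 reached 2-fold. Averaging both probes removed the bound of miR-200b-3p, at −0.54 on the log2 scale, and that of miR-429-3p was lost with quantile normalization (0.0), normexp (−0.22) or uncorrected background (−0.16). Scaled to the median of the probes detected on all 3 arrays, the bound of miR-429-3p was only 1.002-fold. The bound of miR-200a-3p was 1.04-fold with normexp, 1.11-fold without background correction and 1.13-fold with the mean of its probes, and that of miR-200b-3p was 1.16-fold with normexp and 1.25-fold without background correction. miR-429-3p was at least 5.87-fold higher in the exoRNeasy than in the mirVana PARIS extract with scaling and at least 3.00-fold without it. It was 1 of 3 miRNAs detected in the exoRNeasy extract alone, of which 100% had bounds of at least 2-fold. The detection limits fix that share: the lowest detected scaled level was −2.62 with exoRNeasy and −4.87 with mirVana PARIS, so that any such miRNA limited by the mirVana PARIS detection limit had a bound above 2-fold, scaled or not.

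For miRNeasy advanced against mirVana PARIS no difference could be stated after scaling, as 0 of the 7 were detected in the miRNeasy advanced extract and no bound exceeded 1-fold. Unscaled, the log2 bound for mirVana PARIS over miRNeasy advanced was at least 0.97 for miR-200b-3p and at least 0.24 for miR-200a-3p. Before scaling, the signal of the better probe was lower in the miRNeasy advanced extract for each of the 5 miRNAs detected on any array. The differences in linear signal for miRNeasy advanced minus mirVana PARIS were −15.4 ± 0.997 for miR-200b-3p, −6.56 ± 0.86 for miR-200a-3p, −4.90 ± 1.13 for miR-429-3p, −12.2 ± 0.67 for miR-203-3p and −13.0 ± 0.90 for miR-205-5p (SE between spots). With scaling the order turned for the 3 miRNAs of the chromosome 4 cluster, although none was detected with miRNeasy advanced. The scaled log2 levels with miRNeasy advanced and mirVana PARIS were −3.28 and −4.17 for miR-200a-3p, −3.17 and −3.44 for miR-200b-3p, and −4.58 and −4.98 for miR-429-3p. For miR-203-3p, at −6.26 and −4.43, and miR-205-5p, at −6.27 and −4.37, the order did not turn. Their mean signals in the miRNeasy advanced extract were −0.042 and −0.26, however. Spots under a fixed floor were raised to it before log2, so their scaled levels there partly reflect that floor. The level of miR-429-3p there was also affected, as its lowest spot was −2.09. No size of difference is drawn from these levels. Of the 71 miRNAs detected on both the miRNeasy advanced and mirVana PARIS arrays, 69 were dimmer in the miRNeasy advanced extract without scaling, and 80.3% at least 2-fold so. With scaling, 2.82% were at least 2-fold lower and 14.1% at least 2-fold higher.

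**Figure D4:**
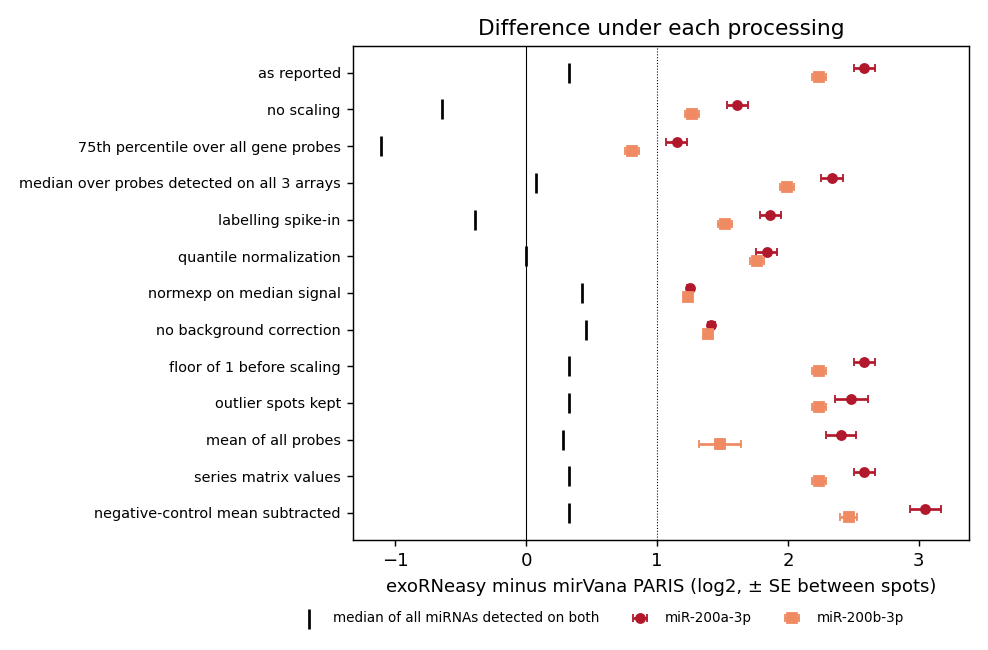
Log2 difference, exoRNeasy minus mirVana PARIS, of miR-200a-3p and miR-200b-3p (± SE between spots) under each way of processing, with a black bar for the median of all miRNAs detected on both arrays. Values of miR-200a-3p run from 1.15 to 3.05 and those of miR-200b-3p from 0.81 to 2.47, all above 0 and above that median. With the scaling as reported, detection in both extracts required differences of at least 1.56 and 0.82. Both thus had to lie above the median of 0.33.

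Of 9 miRNAs listed as opposite arms of the same hairpins or arms of miR-203b, 7 were on the array, with 24 probes, and 0 of 7 were detected in any extract, beside 92.7% of all miRNAs that were detected in none. The mean signals of these probes ran from −9.77 to 1.81 in the exoRNeasy extract, from −4.56 to 0.67 in the miRNeasy advanced extract and from −4.90 to 1.13 in the mirVana PARIS extract, and all 24 lay below the negative-control mean on each array. The median over all spots of each array also lay below that mean, at −2.77, −1.51 and −1.44 in the same order. Of a list of 12 other miRNAs enriched in epithelia, 2, 2 and 3 were detected with exoRNeasy, miRNeasy advanced and mirVana PARIS, beside 4.41%, 3.77% and 7.12% of all miRNAs. The exoRNeasy and miRNeasy advanced arrays detected miR-192-5p and miR-215-5p, which are abundant in gut and liver, and the mirVana PARIS array these and miR-375-3p, which is abundant in pancreatic islets and gut endocrine cells. The remaining 9, which include the sensory organ cluster miR-183-5p, miR-182-5p and miR-96-5p, and miR-34b-5p, miR-34c-5p and miR-449a-5p of ciliated epithelium, were detected on no array. Among these 9, the brighter probe of miR-194-5p reached 10.1 ± 2.72 in the mirVana PARIS extract (SD), with 6 of 15 spots well above background. Its other probe gave 1.89 there, with 0 of 15. The software's call detected miR-194-5p there, and miR-375-3p in the exoRNeasy extract. For exoRNeasy minus mirVana PARIS, miR-192-5p had a scaled log2 difference of 0.58 ± 0.04 and miR-215-5p of 0.36 ± 0.04, near the median of 0.33 over all 80 miRNAs, beside 2.58 and 2.24 for miR-200a-3p and miR-200b-3p. The values of miR-215-5p rest on 1 probe, as its other probe was detected on no array. Without scaling the 2 gut and liver miRNAs stood at −0.39 and −0.61 and so turned with the scaling. Their levels, unlike those of miR-200a-3p and miR-200b-3p, lay above the exoRNeasy detection limit in the mirVana PARIS extract, so the values of the 2 pairs cannot be set against each other for direction. The brighter probe of miR-375-3p gave 21.4 ± 3.02 in the exoRNeasy extract, 6.69 ± 2.89 in the miRNeasy advanced extract and 25.3 ± 2.78 in the mirVana PARIS extract (SD, 15 spots each). In the exoRNeasy extract that probe was undetected but above the 99th percentile of negative-control spots, 12.7, which miR-203-3p and miR-205-5p were not. The other probe of miR-375-3p gave 6.66 in the exoRNeasy extract, below that percentile.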

How the data were processed

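Serum RNA from 3 extractions was measured on 3 one-colour Agilent arrays, 1 per kit. In the scanner files the authors deposited, each spot has a linear intensity, background-subtracted with spatial detrending in Feature Extraction 11.5.1.1 of Agilent, per the file headers (version 11.5 in the submitters' processing notes), with no scaling between arrays. The deposited value table repeats these intensities to within 0.50% per spot, and so is linear and not centred, with column medians of −2.77 (exoRNeasy), −1.51 (miRNeasy advanced) and −1.44 (mirVana PARIS).

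Outlier-flagged spots (1515, 1474 and 1427 of 56430 in the same order) were left out, and no spot was saturated. Each array was scaled by the 75th percentile of the 106 probes found on every array, a floor of 0.01 was set on the scaled spots, and their log2 values were averaged by probe. For each miRNA the probe with most detections was used and, among equals, the brightest. A bound is the level where the miRNA was bright minus either the dim array's lowest detected level or the probe's own level there, whichever was higher. Only the scaling, background, floor, spot, probe and detection rules were varied (numpy 2.4.6, pandas 2.3.3, limma 3.58.1 for normexp). The calculation of differences was run on simulated arrays with the same detection cutoff on each. Unequal detection limits, the scaling between arrays and the bounds were thus not tested by it. The 7 members, the lists, the rule for most alike miRNAs and the alternatives were chosen with earlier results of these data known. The miRNAs named are the 7, their opposite arms, 12 further epithelial miRNAs, 10 blood and tissue markers and the 3 nearest by difference. Genes were named by RefSeq tables on GRCm38.p6. The number of arrays, 1 per kit, limits the precision.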

Additional observations from a re-analysis of the deposited data

How the results depend on the processing

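For exoRNeasy minus mirVana PARIS, the log2 difference stayed above 0 for miR-200a-3p and miR-200b-3p under all 12 alternatives, a direction that detection in both extracts fixed in part. In that order it was 1.61 and 1.27 without scaling, 1.15 and 0.81 when scaled to the 75th percentile of all gene probes, 2.34 and 1.99 with the median over shared probes, 1.87 and 1.52 by the spike-in of the labelling, 1.84 and 1.76 with quantile normalization, 1.25 and 1.24 with normexp, 1.41 and 1.39 without background correction, 2.40 and 1.48 with the mean of all probes, and 3.05 and 2.47 with the negative-control mean subtracted, an alternative chosen after seeing the data. The log2 bounds of miR-200a-3p and miR-200b-3p for exoRNeasy over miRNeasy advanced, 1.01 and 1.41 as reported, were 1.85 and 2.24 without scaling, 1.36 and 1.75 when scaled to that percentile of all gene probes, 0.73 and 1.13 with the median, 1.97 and 2.36 with the spike-in, 0.060 and 0.21 with normexp, 0.15 and 0.32 without background correction, 0.17 and −0.54 (no bound) with the mean of all probes, and 1.56 and 2.00 with negative controls subtracted. That of miR-429-3p, 0.29 as reported, was 1.12 without scaling, 1.24 with the spike-in and only 0.003 with the median. No bound was left for it with quantile normalization (0.0), normexp (−0.22) or no background correction (−0.16). Its bound for exoRNeasy over mirVana PARIS, 2.55 as reported, was 1.59 unscaled, 1.12 when scaled to all gene probes, 1.84 with the spike-in, 1.46 with quantile normalization, 1.08 with normexp, 1.24 without background correction and 3.23 with negative controls subtracted. The normexp offset of 50, and uncorrected background, shrink log2 differences of dim probes by construction; for the other changes the cause was not tested. With every probe required, 0 members were detected on the exoRNeasy and 0 on the mirVana PARIS array, and the software's call gave 2 on the miRNeasy advanced array. That call and a cutoff of over 0.25 of spots each gave 6 on the mirVana PARIS array. The floor of 1 before scaling and the deposited value table moved none of these values beyond the spot error, and with outlier spots kept the difference of miR-200a-3p was 2.48 ± 0.13 (SE). Of the 80 miRNAs compared between exoRNeasy and mirVana PARIS, 20 were at least 2-fold higher and 2 at least 2-fold lower; the counts were 5 and 22 unscaled, 4 and 45 when scaled to all gene probes, 7 and 14 with the spike-in, 12 and 2 with quantile normalization, 10 and 0 with normexp, 14 and 0 without background correction and 16 and 5 with the mean of all probes. Signal over background limits every value here, since no mean probe signal of the 7 miRNAs exceeded 57.8. No paired analysis was possible because each kit had 1 array.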
